A study of Mus musculus with 6 samples.

Results

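The genes described here encode the aldose reductases and the enzymes around them in the polyol pathway, measured in NOR-10 fibroblasts, an established line from mouse skeletal muscle. The set was taken from the deposited gene table by name and holds 9 genes of the 34745 listed: Akr1b3, Akr1b7, Akr1b8, Akr1b10, Akr1a1, Sord, Khk, Dcxr and Cryl1. RNA-seq compared 3 libraries labelled Con, from cells given PBS, with 3 libraries labelled Dgal, from cells given D-gal (D-galactose) at 20 mg/mL for 3 days. All 6 libraries come from the same cell line, and no source used here says whether the replicates were separate cultures, so the p-values measure only the spread between these libraries.

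Aldose reductase reduces the aldehyde group of a sugar to an alcohol with NADPH. It turns glucose into sorbitol and galactose into galactitol. Sorbitol dehydrogenase then oxidises sorbitol to fructose, while galactitol is a poor substrate for it and is known to build up in the lens in galactosaemia. Sorbitol also serves as an organic osmolyte, most of all in the renal medulla, where the aldose reductase gene is a target of the osmotic transcription factor NFAT5. Akr1b3 encodes the mouse aldose reductase, and Akr1b7, Akr1b8 and Akr1b10 encode aldose reductase-like proteins. Akr1a1 encodes aldehyde reductase, Sord encodes sorbitol dehydrogenase and Khk encodes ketohexokinase, which phosphorylates fructose. Akr1a1, Dcxr (L-xylulose reductase) and Cryl1 (L-gulonate dehydrogenase) act in the related glucuronate-xylulose pathway.

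The 4 Akr1b genes lie side by side on chromosome 6 of GRCm38 and are alike in sequence, which matters for how reads were assigned to them. Akr1b3 (ENSMUSG00000001642) is on the minus strand at chr6:34302434-34317478. The other 3 are on the plus strand: Akr1b8 (ENSMUSG00000029762) at chr6:34354119-34368463, Akr1b10 (ENSMUSG00000061758) at chr6:34384218-34396950 and Akr1b7 (ENSMUSG00000052131) at chr6:34412334-34423142. The cluster spans 120709 bp, with gaps of 36640, 15754 and 15383 bp between neighbours. Each coding transcript has 10 exons and 948 coding bases before the stop codon, so the coding sequences can be compared base by base without gaps.

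The start of the coding sequence shows how far the main aldose reductase gene is from the other 3. Bases 1 to 90 from the start codon, 5′ to 3′ on the coding strand, are given from the GENCODE M21 transcripts, with each base that differs from Akr1b3 in capitals.
Akr1b3: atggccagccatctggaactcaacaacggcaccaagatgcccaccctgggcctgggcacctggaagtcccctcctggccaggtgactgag
Akr1b8: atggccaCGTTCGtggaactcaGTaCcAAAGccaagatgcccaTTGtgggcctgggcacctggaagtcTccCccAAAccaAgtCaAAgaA
Akr1b10: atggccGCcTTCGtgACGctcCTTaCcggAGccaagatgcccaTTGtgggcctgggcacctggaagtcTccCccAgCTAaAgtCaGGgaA
Akr1b7: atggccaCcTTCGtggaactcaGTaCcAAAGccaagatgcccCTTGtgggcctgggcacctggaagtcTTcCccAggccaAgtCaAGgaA
Akr1b8 differed from Akr1b3 at 26 of these bases, Akr1b10 at 29 and Akr1b7 at 25. Akr1b8 and Akr1b7 differed from each other at only 6.

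Bases 475 to 554 are the longest stretch that Akr1b8 and Akr1b10 have in common, and are shown because a read that falls inside them cannot be given to either gene by sequence. Capitals again mark differences from Akr1b3.
Akr1b3: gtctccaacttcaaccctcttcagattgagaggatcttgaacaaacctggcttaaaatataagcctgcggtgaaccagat
Akr1b8: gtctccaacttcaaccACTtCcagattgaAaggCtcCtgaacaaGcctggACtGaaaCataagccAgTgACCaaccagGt
Akr1b10: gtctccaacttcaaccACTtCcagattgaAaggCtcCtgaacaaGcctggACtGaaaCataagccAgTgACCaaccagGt
Akr1b7: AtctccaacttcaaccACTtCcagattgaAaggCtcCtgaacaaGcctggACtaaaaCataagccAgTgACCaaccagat
Akr1b8 and Akr1b10 were the same over all 80 bases and differed from Akr1b3 at 18 of them, whereas Akr1b7 differed from Akr1b8 at 3. Over the whole coding sequence, Akr1b3 was 70.9% identical to Akr1b8, 71.6% to Akr1b10 and 72.0% to Akr1b7, and its longest run in common with any of them was 24 bases. Akr1b8 was 84.7% identical to Akr1b10 and 84.8% to Akr1b7, and Akr1b10 was 89.2% identical to Akr1b7.

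The coding transcript of Akr1b3 is matched closely elsewhere in the annotation. Of its 31-base words, 90.8% also occur in another annotated gene, 63.5% in pseudogenes. The closest match is Gm38056 on chromosome 1, which contains 88.3% of these words and had counts of 0, 0 and 0 in the Con libraries and 5, 1 and 0 in the Dgal libraries. The processed pseudogenes Gm6644, Gm6736 and Gm12138, which contain 61.0%, 56.2% and 50.1% of the words, are not listed in the gene table and so have no counts. For Akr1b7, Akr1b8 and Akr1b10 the shared part was 27.7%, 10.5% and 14.4%, and for Sord it was 35.9%, all of it in a pseudogene. The coding transcripts of Akr1a1, Khk, Dcxr and Cryl1 shared no such word. The deposited counts are per gene, and over the words of all annotated transcripts the shared part of Akr1b3 was 15.2%. On that measure it was 9.48% for Akr1b8, 5.63% for Akr1b10 and 3.54% for Akr1a1, and unchanged for Akr1b7 and Sord. The shares given below for genes outside the set are over all annotated transcripts. How reads with several equally good places were counted is not given in the sources used here, so the counts of the Akr1b genes and Sord are uncertain to that extent.

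Of the 9 genes, 8 had enough counts for the test across all genes, and Akr1b7 did not. With edgeR's quasi-likelihood test and an adjusted p under 0.05, 4 of the 8 were higher under D-gal (Akr1b3, Akr1b8, Akr1b10 and Dcxr), beside 16.9% of the 13407 genes tested. Another 3 were lower (Akr1a1, Sord and Cryl1), beside 17.8% of all genes tested, and Khk did not pass. When the log2 fold change also had to reach 1 in either direction, 2 genes were called, Akr1b3 and Cryl1, beside 4.21% of all genes tested. The values of the groups did not overlap for 7 of the 8, beside 49.1% of all genes tested. The median log2 fold change of the 8 was 0.14, against 0.0036 for all genes tested.

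Akr1b3, the aldose reductase gene, rose far more than any other gene of the set. Its counts, normalized to the mean library size, were 539, 565 and 504 in the Con libraries and 2381, 3079 and 2604 in the Dgal libraries. Each Dgal library was far above every Con library, and the spread within Dgal was wider than within Con. The mean was 536 ± 30.5 (SD, n = 3) in Con and 2688 ± 357 (SD, n = 3) in Dgal, a 5.01-fold rise. The log2 fold change was 2.32 (standard error 0.10, edgeR adjusted p = 4.5e-06), the 40th largest among the 318 genes called higher. A two-sided exact permutation test gave p = 0.1, the smallest value that 3 libraries against 3 allow, for Akr1b3 and each of the other 6 genes whose groups did not overlap.

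**Figure D1:**
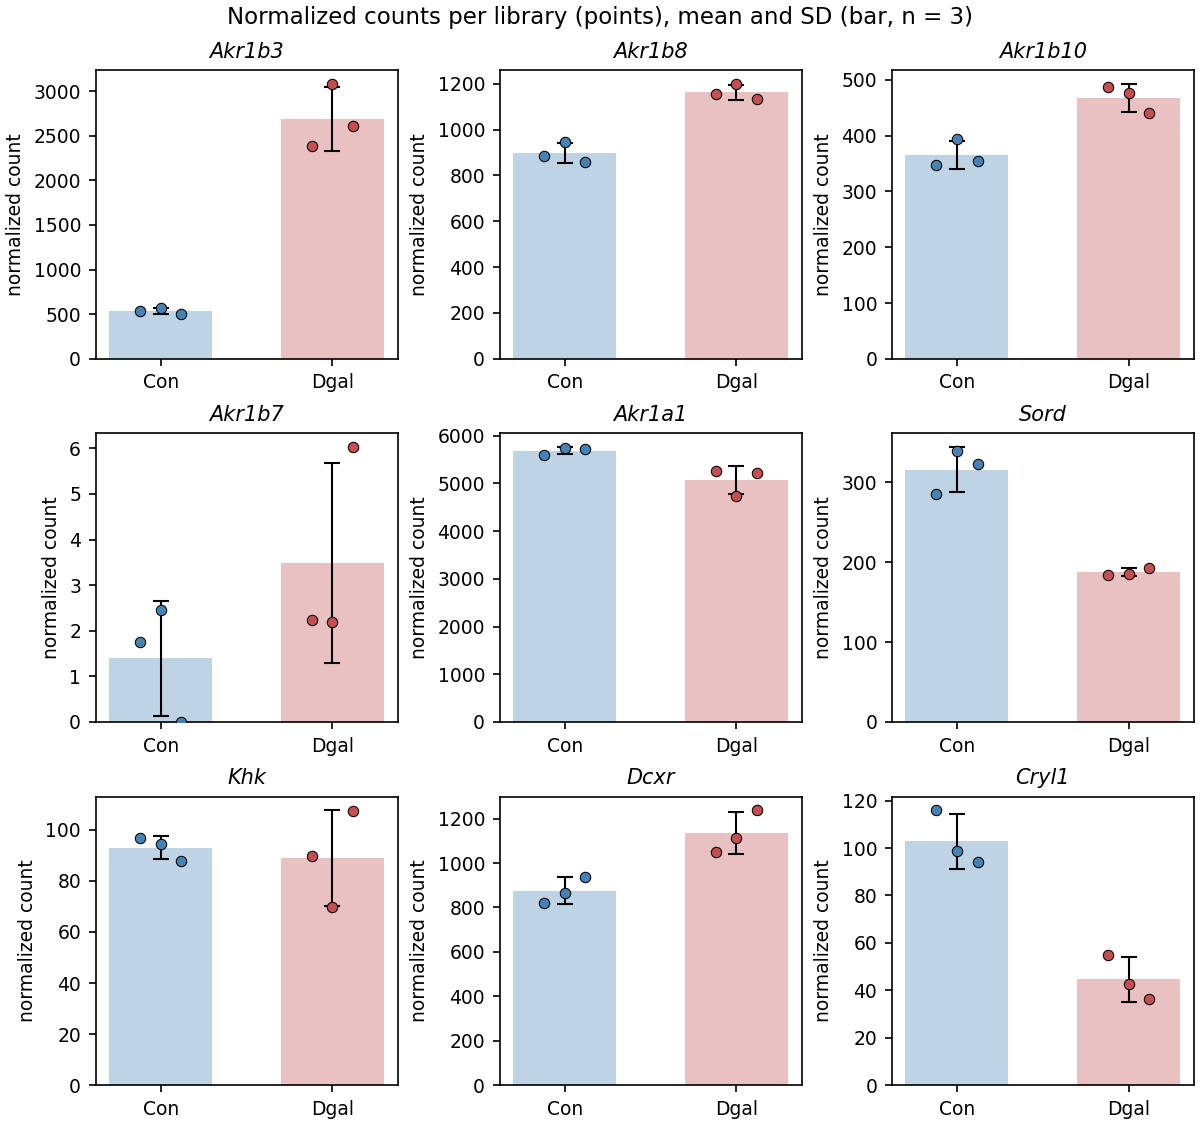
Normalized counts of the 9 genes in each library, with a separate vertical axis from 0 for each gene. Points are libraries, and bars and whiskers are the mean and SD of the 3 libraries of Con or Dgal. Akr1b3 moves from between 504 and 565 to between 2381 and 3079, Sord and Cryl1 fall without overlap, and Akr1b7 stays at a few counts in both groups.

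The aldose reductase-like genes of the cluster rose by much less. Akr1b8 had normalized counts of 885, 946 and 859 in Con and 1156, 1199 and 1133 in Dgal, with all Dgal libraries above all Con libraries. This is a rise of 29.6% (log2 fold change 0.37, standard error 0.05, edgeR adjusted p = 0.00123). Akr1b10 had 348, 393 and 354 in Con and 487, 476 and 440 in Dgal, again without overlap. It rose by 28.0% (log2 fold change 0.36, standard error 0.08, edgeR adjusted p = 0.00931). Akr1b7, known as an androgen-regulated protein of the vas deferens, was close to the limit of detection, with raw counts of 2, 3 and 0 in Con and 2, 2 and 5 in Dgal. Its groups overlapped (two-sided exact permutation p = 0.3), and no fold was formed. On the other strand, the pseudogene Gm13857 covers 348 bases of its exons and had a count of 0 in every library.

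The share of each gene within the cluster does not depend on how the libraries were scaled. Counts were divided by the length of all annotated exons of each gene, and the share of Akr1b3 in the sum of the 4 genes was taken in each library. It was 8.53%, 8.30% and 8.19% in Con and 23.8%, 28.2% and 26.0% in Dgal. The Con libraries lay close together and every Dgal library was far above them. The mean share went from 8.34% ± 0.17 (SD, n = 3) to 26.0% ± 2.20 (SD, n = 3), a difference of 17.6 percentage points (two-sided exact permutation p = 0.1, the smallest possible). Akr1b8 made up 78.1% of the cluster in Con and 63.0% in Dgal, and Akr1b10 13.5% and 10.8%.

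The size of this share depends on the length given to Akr1b3. Its annotated exons cover 8384 bases over 6 annotated transcripts, whereas the coding transcript is 1387 bases long, and the authors' FPKM divide by 10224 bases. With the coding transcripts as lengths, Akr1b3 made up 29.4% ± 0.55 of the cluster in Con and 61.6% ± 2.81 in Dgal (SD, n = 3), a difference of 32.2 percentage points. On that scale Akr1b8 was the leading gene of the cluster in Con and Akr1b3 in Dgal, while on the scale of all exons Akr1b8 led in both groups. The table has no counts per transcript, so which length fits better was not tested.

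**Figure D2:**
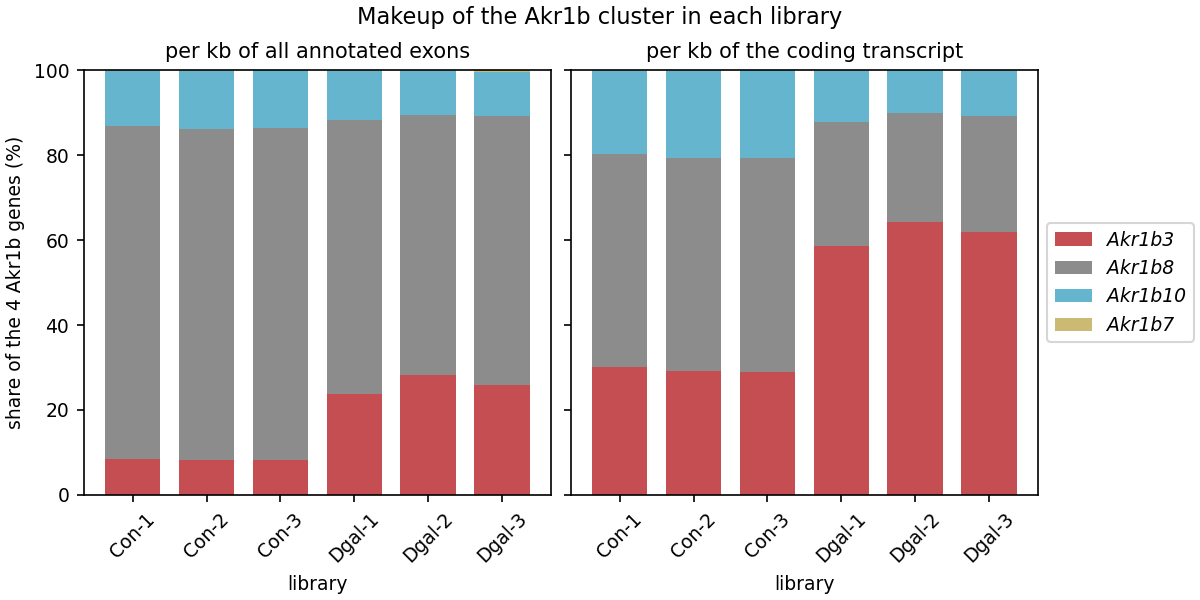
Share of each Akr1b gene (%) in the summed level of the 4 genes, 1 stacked bar per library, with counts divided by the length of all annotated exons (left) or of the coding transcript (right). The Akr1b3 part grows in every Dgal library on both scales, from a mean of 8.34% to 26.0% on the left and from 29.4% to 61.6% on the right. Akr1b7 is too low to be seen in most bars.

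Summing the 4 genes takes away any effect of reads being split among them. It does not cover reads shared with genes outside the cluster, such as Gm38056 and the pseudogenes that match Akr1b3. The coding sequence of Akr1b3 itself has no run longer than 24 bases in common with the rest of the cluster. The summed counts were 2036, 2336 and 1701 in Con and 3588, 4356 and 3471 in Dgal. Even without normalization each Dgal library was above each Con library, although the Con libraries held more counts in all. As normalized counts the sum was 1799 ± 96.7 in Con and 4322 ± 385 in Dgal (SD, n = 3). In a fit of all genes with this sum in place of the 4 genes, the log2 fold change was 1.26 (standard error 0.07, edgeR adjusted p = 1.4e-05, 2.40-fold).

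Akr1a1 (ENSMUSG00000028692, chr4:116636510-116651680, minus strand) encodes aldehyde reductase, the most abundant reductase of the set. Its normalized counts were 5603, 5731 and 5722 in Con and 5266, 4743 and 5207 in Dgal, so every Dgal library was below every Con library. The fall was small, 10.8% (log2 fold change −0.16, standard error 0.04, edgeR adjusted p = 0.0212). It did not pass the threshold when Con replicate 2 (adjusted p = 0.0620, edgeR) or Con replicate 3 (adjusted p = 0.0585, edgeR) was left out, with log2 fold changes of −0.16 in both cases. Its coding sequence has no 31-base word in common with the Akr1b genes, so it is not open to the same doubt about shared reads.

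The level of all 5 reductases (the Akr1b genes and Akr1a1) was summed in CPM, the count scaled to a common library size, divided by kilobases of annotated exon. The sum was 169 ± 3.24 in Con and 183 ± 2.52 in Dgal (SD, n = 3), a ratio of 1.09. Akr1a1 provided 73.0% of this sum in Con and 59.9% in Dgal, and Akr1b3 2.26% and 10.4%. Per kilobase of coding transcript, the Akr1b3 part was 7.27% in Con and 28.9% in Dgal and the ratio of the sums was 1.26. The sums of the groups did not overlap on either scale.

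Sord (ENSMUSG00000027227, chr2:122234749-122265340, plus strand), the second step of the polyol pathway, moved the opposite way to Akr1b3. Its normalized counts were 285, 339 and 323 in Con and 184, 185 and 193 in Dgal. The Dgal libraries were close to each other and all below the Con libraries. Sord fell by 40.8%, from 316 ± 28.0 to 187 ± 4.91 (SD, n = 3). The log2 fold change was −0.76 (standard error 0.09, edgeR adjusted p = 6.4e-04).

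The ratio of Akr1b3 to Sord within a library compares the transcripts of both steps directly. On the log2 scale and per kilobase of annotated exon, it was −0.91, −1.10 and −1.19 in Con and 1.86, 2.23 and 1.92 in Dgal. Sord was thus the higher of the pair in each Con library and Akr1b3 in each Dgal library. The mean log2 ratio was −1.07 ± 0.14 in Con and 2.00 ± 0.20 in Dgal (SD, n = 3), a difference of 3.07 (two-sided exact permutation p = 0.1, the smallest possible). With coding transcripts as lengths the ratio was above 0 in both groups, 1.53 in Con and 4.60 in Dgal, with the same difference. The sign of the ratio in Con therefore rests on the length used, and the change between groups does not.

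**Figure D3:**
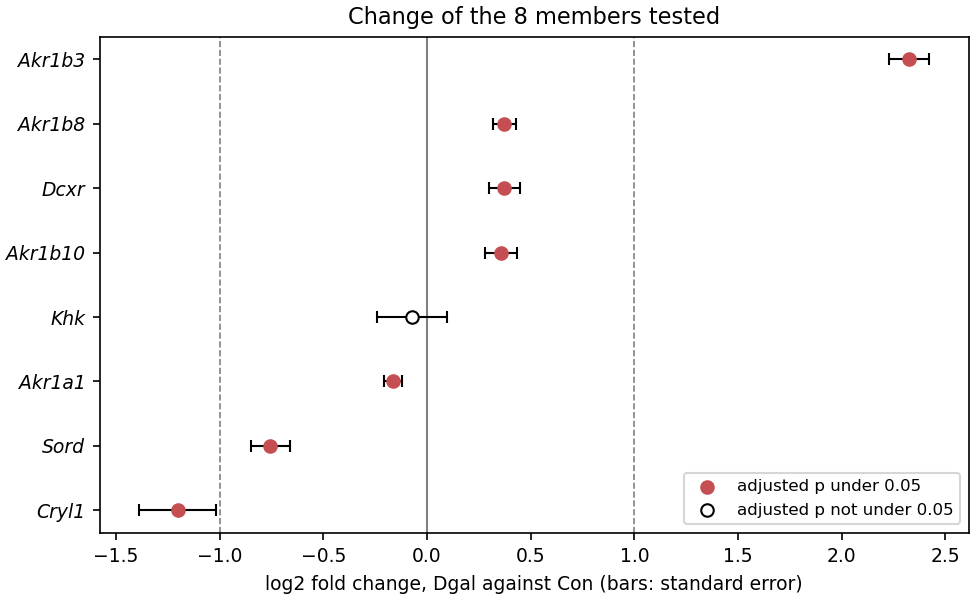
Log2 fold change of Dgal against Con for the 8 genes tested, with standard errors from edgeR. Dashed lines mark a log2 fold change of 1 in either direction, and filled points have an adjusted p under 0.05. Akr1b3 stands at 2.32, the other 3 genes that rose lie between 0.36 and 0.37, and Akr1a1, Sord and Cryl1 lie below 0 at −0.16, −0.76 and −1.20.

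Khk (ENSMUSG00000029162, chr5:30921431-30931248, plus strand), whose product takes the fructose made by sorbitol dehydrogenase, gave no detectable difference. It had raw counts of 111, 116 and 87 in Con and 80, 64 and 89 in Dgal, and the normalized values of the groups overlapped. The normalized mean was 93.1 ± 4.64 in Con and 89.0 ± 18.7 in Dgal (SD, n = 3). The log2 fold change was −0.07 (standard error 0.17, edgeR adjusted p = 0.783), and it was 0.08 without Dgal replicate 2. Among the tested genes of the set only Cryl1 had a larger standard error, so a small change of Khk would not be detectable at this depth.

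Dcxr and Cryl1, both of the glucuronate-xylulose pathway, went in opposite directions. Dcxr (ENSMUSG00000039450, chr11:120725399-120727281, minus strand) reduces L-xylulose to xylitol and rose by 29.5%, from 876 ± 59.6 to 1134 ± 94.6 normalized counts (SD, n = 3). Its log2 fold change was 0.37 (standard error 0.08, edgeR adjusted p = 0.00661). Cryl1 (ENSMUSG00000021947, chr14:57275034-57398483, minus strand) had normalized counts of 116, 98.7 and 93.9 in Con and 55.0, 42.6 and 36.1 in Dgal, with no overlap. It oxidises L-gulonate, the product of aldehyde reductase, and was 2.30-fold lower under D-gal (log2 fold change −1.20, standard error 0.18, edgeR adjusted p = 0.00172). Between the Dgal libraries its counts were only 49, 39 and 30, the lowest of the tested genes of the set.

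The order of the levels can be compared between genes only per length. In CPM per kilobase of annotated exon, the order in Con was Akr1a1 (123), Dcxr (45.6), Akr1b8 (35.6), Sord (8.0), Akr1b10 (6.15), Akr1b3 (3.81), Khk (3.09), Cryl1 (2.81) and Akr1b7 (0.065). Only Khk and Cryl1 overlapped as neighbours in this order. In Dgal, Akr1b3 followed Akr1b8 at 19.1, above Akr1b10 (7.88) and Sord (4.74), and no neighbours overlapped. In CPM per kilobase of coding transcript, Akr1b3 followed Akr1b8 in Con as well with 23.0 and stood in Dgal at 115.5, below Akr1a1 with 213 and above Dcxr with 75.8. On this scale Sord and Khk overlapped in Dgal, at 4.74 and 4.22.

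The changes of the genes around the cluster were also read from the fit over all genes. Within 250 kb of it the table lists 12 other genes, of which 4 could be tested and 2 passed, Bpgm and Slc35b4. Bpgm, which encodes bisphosphoglycerate mutase, had 603 ± 22.8 normalized counts in Con and 1549 ± 32.2 in Dgal (SD, n = 3; log2 fold change 1.36, standard error 0.05, edgeR adjusted p = 2.2e-06). It lies beyond Akr1b7, so that Akr1b8 and Akr1b10, with their small rises, stand between it and Akr1b3. Slc35b4, a nucleotide sugar transporter gene, rose by 0.31 on the log2 scale (standard error 0.05, edgeR adjusted p = 0.00273). Its exons overlap those of Gm13856 on the other strand by 919 bases, and Gm13856 gave a log2 fold change of 0.49 (standard error 0.22, edgeR adjusted p = 0.123). Cald1, which encodes caldesmon, gave −0.03 (edgeR adjusted p = 0.912), but 0.19 (edgeR adjusted p = 0.00624) without Con replicate 1, which had 27615 counts of it against 20300 and 15507 in the other Con libraries. The noncoding gene Gm14546 runs across the Akr1b3 locus on the other strand with no exon in common and had no counts except 3 in Dgal replicate 3.

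**Figure D4:**
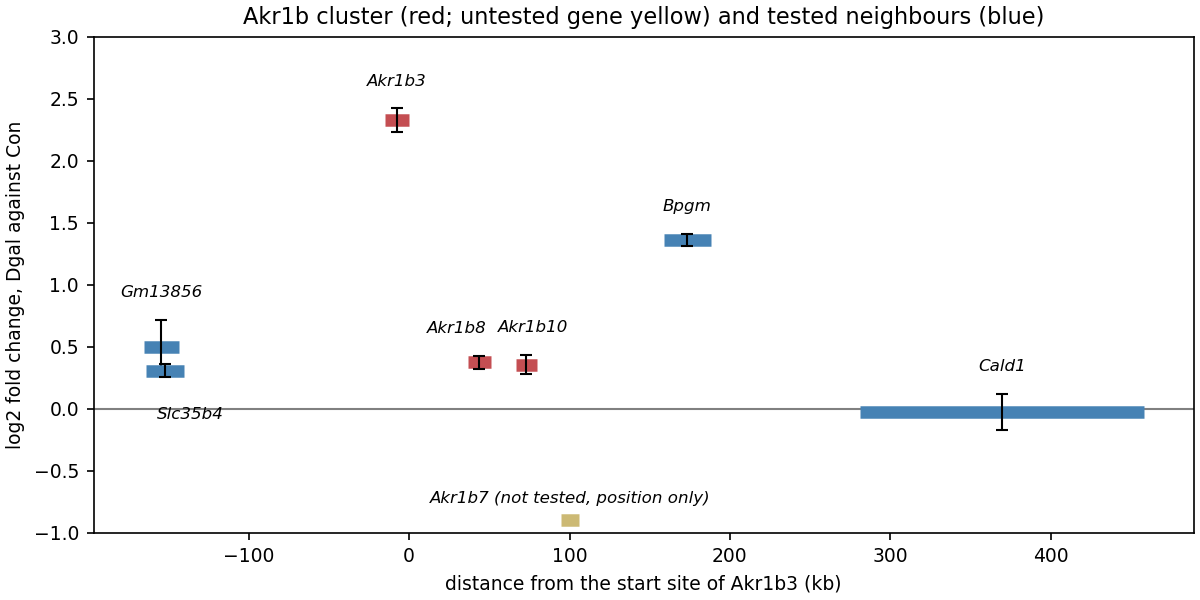
Log2 fold change of Dgal against Con (vertical axis, whiskers: standard error) of the Akr1b genes and their tested neighbours, drawn at their position relative to the start site of Akr1b3 (horizontal axis, kb). Bar lengths are gene spans, and Akr1b7 is drawn at the lower edge for its position only. Akr1b3 at 2.32 and Bpgm at 1.36 stand out, with Akr1b8 and Akr1b10 between them in position at 0.37 and 0.36.

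RefSeq promoter sequences (GRCm38.p6), from 250 bases before to 50 bases after the start, were found for 8 of the 9 genes. Akr1b3 was the missing entry. Both strands were searched for 6 motifs. None of the 8 promoters held the antioxidant response element core TGACNNNGC, which 12.4% of all 32851 promoters hold, an AP-1 site (TGACTCA or TGAGTCA, 5.20%) or the tonicity enhancer (4.96%). The shorter core of the latter, TGGAAA, was in Dcxr only, beside 21.4% of all promoters. CCAAT was in Akr1b7, Dcxr and Cryl1, beside 37.4%, and TATAAA in Akr1b8, beside 13.6%.

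The 5 genes with the pattern most like Akr1b3 were chosen by the root mean square difference of log2 normalized counts, centred on each gene's Con mean, over the 6 libraries and 9986 candidate genes. They were Olfml2b (difference 0.068), Stc1 (0.125), Ranbp3l (0.133), Cnnm1 (0.148) and Cdo1 (0.199). Like Akr1b3, all 5 were highest in Dgal replicate 2, which is part of the measure that chose them. Olfml2b, an extracellular matrix protein gene, went from 1246 ± 77.9 to 6389 ± 635 normalized counts (SD, n = 3). Stc1 encodes the secreted glycoprotein stanniocalcin 1, and its log2 fold change was 2.40, with an overlap of 229 exon bases with a gene on the other strand. Cdo1 encodes cysteine dioxygenase, which supplies the precursor of taurine, and its log2 fold change was 2.14. These genes were picked for the likeness, so no test of it was made.

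Genes of the same wider pathways were counted from 8 lists that leave out the 9 genes, at an edgeR adjusted p under 0.05 and beside the 16.9% higher and 17.8% lower among all genes tested. Of the other aldo-keto reductases, 7 were tested, none was higher and 1 was lower, with a median log2 fold change of −0.08. The lower one was Akr1c14, a hydroxysteroid dehydrogenase gene, which fell from 95.1 ± 9.51 to 33.9 ± 5.14 normalized counts (log2 fold change −1.49, standard error 0.17, edgeR adjusted p = 4.3e-04) and has 234 bases of exon in common with Gm18857 on its strand. Akr7a5 (−0.12) and the potassium channel subunit gene Kcnab1 (−0.04) did not pass.

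Of 14 tested genes of hexose transport and entry, 6 were higher and none was lower, with a median log2 fold change of 0.15. The glucose transporter gene Slc2a1 had a log2 fold change of 0.43, Mpi (mannose phosphate isomerase) 0.53 and the hexokinase gene Hk2 0.27. Slc2a13, a proton myo-inositol cotransporter gene named here after its values were seen, was the only one called with the fold criterion (1.01). The Leloir pathway turns galactose into glucose 1-phosphate, and 5 of its genes were tested, with 2 higher and 1 lower and a median of 0.05. Galm (galactose mutarotase) rose by 0.69 on the log2 scale (edgeR adjusted p = 4.5e-04), and Galk1 (galactokinase) fell by 0.38 (edgeR adjusted p = 0.00230). Galt rose by 0.38 (edgeR adjusted p = 0.0289), but lost this call when any of 4 single libraries was left out (Con replicates 2 and 3, Dgal replicates 1 and 2; adjusted p from 0.0758 to 0.0779, edgeR). Of its sequence words, 30.3% are shared with other genes.

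Of 6 tested genes of glucuronate-xylulose and pentose handling, 1 was higher and 1 was lower, with a median of 0.01. Ugdh, which makes UDP-glucuronate, fell by 0.50 on the log2 scale (4184 to 2948 normalized counts, edgeR adjusted p = 9.3e-05), and 158 bases of its exons are also exon of Gm43552 on its strand. Ugp2, the step before it, rose by 0.37 (edgeR adjusted p = 0.00178), and Rpia gave −0.17 and did not pass. With Cryl1 and Akr1a1 lower and Dcxr higher, the pathway had members past the threshold in both directions.

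Aldose reductase uses NADPH, and of 14 tested genes of NADPH supply 4 were higher and 3 were lower. Me1 (cytosolic malic enzyme) went from 1535 ± 38.4 to 5046 ± 620 normalized counts (log2 fold change 1.72, standard error 0.08, edgeR adjusted p = 7.9e-06), with 36.9% of its sequence words shared with other genes. Nadk2, a mitochondrial NAD kinase gene, rose by 0.93 and Idh1, the cytosolic NADP-dependent isocitrate dehydrogenase gene, by 0.28. The lower genes, named here after their values were seen, were Tkt (−0.28), Aldh1l2 (−0.19) and Pgd (−0.18). G6pdx, also named after its values were seen, did not pass (−0.02). The median of the list was 0.03. Of 18 tested genes of carbonyl and methylglyoxal detoxification, 3 were higher and 3 lower, with a median of 0.02. Aldh2 fell by 0.39 and Esd, which shares 12.1% of its words with other genes, by 0.46, and Hagh (glyoxalase 2) rose by 0.59. Aldh3a1, named after its values were seen, fell most (log2 fold change −2.39, standard error 0.60, edgeR adjusted p = 0.0166) at raw counts of 35, 32 and 47 in Con and 13, 1 and 3 in Dgal.

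The osmotic response list (NFAT5 and its known targets, without Akr1b3) had 11 tested genes, of which 7 were higher and 2 were lower, with a median log2 fold change of 0.54. Hspa4l, a heat shock protein gene, rose by 1.69 (2569 ± 7.46 to 8260 ± 415 normalized counts, edgeR adjusted p = 1.0e-06). Aqp1 (aquaporin 1) rose by 0.99, Hspa1b by 0.82 with 68.1% of its words shared with other genes, and the myo-inositol transporter gene Slc5a3 by 0.55, with 318 bases of exon shared with genes on its strand. The betaine transporter gene Slc6a12, named after its values were seen, had the largest log2 fold change of the list, 4.23, at raw counts of 29, 5 and 4 in Con and 140, 247 and 176 in Dgal. The 2 lower genes, also named after their values were seen, were Slc38a2 (log2 fold change −0.27) and Sgk1 (−0.12). Nfat5 itself did not pass (log2 fold change 0.41, standard error 0.28, edgeR adjusted p = 0.296). Its raw counts in Con were 5270, 13361 and 10786. The rise of several genes of the list was already known when the list was written, so its count is a description only. Of 15 tested genes listed as NRF2 targets, 1 was higher and 10 were lower, with a median of −0.29. This count covers the listed genes alone. Me1 and Cbr1, both higher, were counted in other lists, as were Aldh3a1, Ugdh, Tkt and Pgd, all lower. Cbr1 was named after its values were seen. Among the 15, Fth1 (ferritin heavy chain) fell by 0.29, Txnrd1 (thioredoxin reductase 1) by 0.38 and Nqo1 (a quinone reductase) by 0.44. Gsta4, named after its values were seen, was the only one called with the fold criterion (−1.36).

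**Figure D5:**
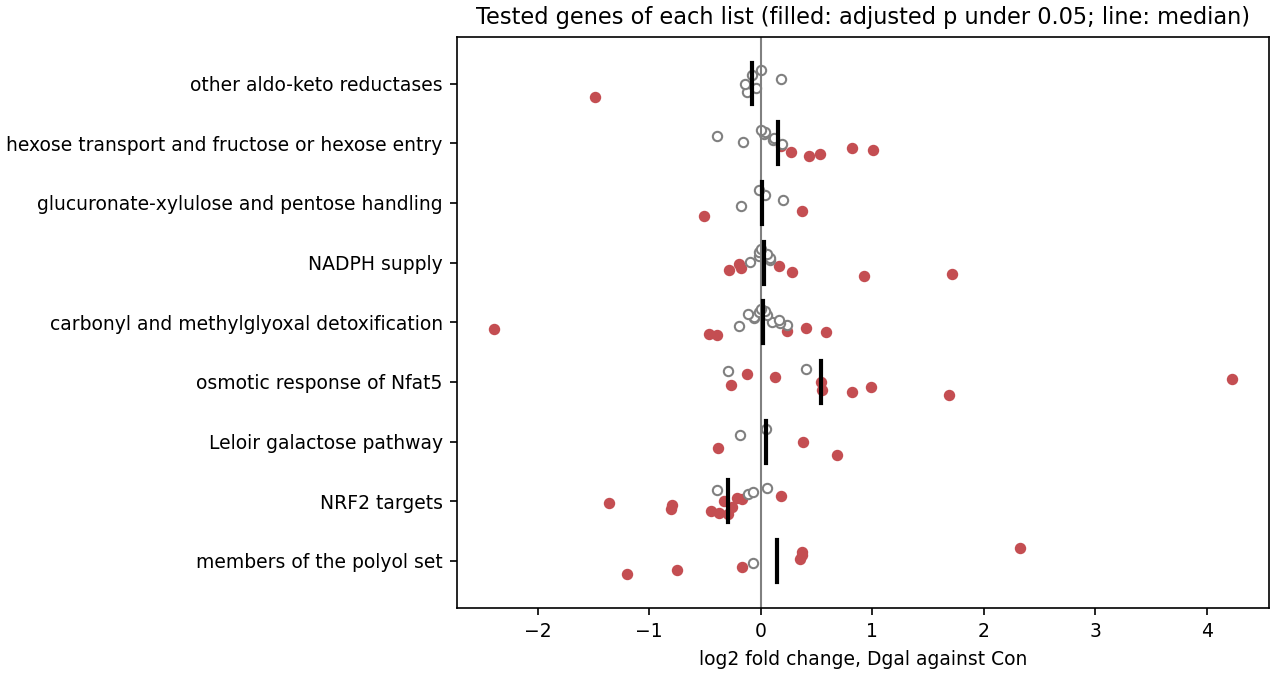
Log2 fold change of Dgal against Con of every tested gene of the 8 lists and of the 9-gene set (bottom row). Filled points have an adjusted p under 0.05 in edgeR and the black lines are medians. The osmotic list lies mostly to the right (median 0.54), the NRF2 list mostly to the left (median −0.29), and the polyol set spreads to both sides.

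Library totals ranged from 16876087 to 20830349 counts in Con and from 13759108 to 15157064 in Dgal. The fibroblast label was checked against 10 markers: 8 were expressed well enough to be tested, while Lum and Fap had at most 1 and 5 counts in any library. The summed level of the markers was lower in Dgal (4755 to 4876 CPM) than in Con (7075 to 7242). Most of this sum came from Col1a1, Col1a2 and Vim, with log2 fold changes of −0.71, −0.97 and −0.50. At an edgeR adjusted p under 0.05, 6 of the 8 were lower, beside 17.8% of all genes tested. Pdgfrb was higher, beside 16.9%, and Pdgfra did not pass (log2 fold change −0.08, edgeR adjusted p = 0.0679). Fewer cells of a type and less RNA per cell cannot be told apart in bulk libraries, and the part of this difference in the results above was not tested. Markers of other cell types were low. Myogenic markers summed to 3.77 to 5.98 CPM with Pax7, Myf5 and Myod1 at 0. Endothelial markers summed to 3.13 to 5.34 and adipocyte markers to 0.948 to 2.04, with Adipoq, Lep and Cidec at 0. Of these, Des (log2 fold change −0.78, edgeR adjusted p = 0.00898) and Tek (−1.02, edgeR adjusted p = 0.0342) passed as lower. Epithelial markers, led by Cdh1 with Epcam at 0, summed to 7.01 to 8.53 in Con and 1.72 to 2.69 in Dgal. Cdh1 had raw counts of 141, 142 and 140 in Con and 37, 26 and 33 in Dgal (log2 fold change −1.79, edgeR adjusted p = 2.0e-04). Leukocyte markers summed to 4.03 to 17.1 in Con, with the highest value in replicate 1, and to 4.44 to 5.48 in Dgal. Without that Con library the log2 fold change of Akr1b3 was 2.33 (edgeR adjusted p = 8.4e-05), that of Sord −0.83 and that of Cryl1 −1.11. Mitochondrial genes took 4.26% to 4.44% of counts in Con and 4.87% to 4.98% in Dgal, and their part in the results was not tested.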

How the data were processed

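Total RNA of NOR-10 cells was sequenced by the authors on an Illumina platform. The labels name an RNA-seq library kit and the study's methods a small RNA kit, and which was used was not settled here. The submitters' processing notes name HISAT2 (version 2.0.4). The counting tool, annotation and strand setting are not given in the sources used here. The deposited table holds read counts per gene, which the authors left without normalization, and FPKM values, which the authors obtained by dividing by a gene length and the library total. Groups came from the sample labels, dose and duration from the study's methods.

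Counts were tested with edgeR (version 4.0.16, R 4.3.3): TMM factors (0.986 to 1.01), filterByExpr, quasi-likelihood test and Benjamini-Hochberg adjustment over 13407 genes, without covariates. Normalized counts are counts per TMM-scaled library size, times the mean such size. Single values were compared by a two-sided exact permutation test, for which 0.1 is the smallest p. On simulated counts with 200 changed genes edgeR recovered 200 among 13300 genes, with 206 called. All genes were given the same replicate spread there. The planted changes were larger than those of Akr1a1, Akr1b8, Akr1b10, Dcxr and Sord, so recovery of changes of their size was not checked. Replicates differed beyond counting error (chi-square divided by its degrees of freedom, 6.00 to 9.42). Coordinates, lengths and sequences are from GENCODE M21. For all genes of the set but Cryl1, the table and GENCODE give the same start and end.

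Genes named are the 9 of the set, the 3 of each list with the smallest p (4 for the osmotic and Leloir lists), tested genes within 250 kb of the cluster and the 5 most like Akr1b3 among tested genes with at least 100 counts in every Dgal library. A gene that this rule names is not reported here. The genes of the set and the lists were chosen with earlier results of these data known. Alternatives were DESeq2 (version 1.42.0), RLE or upper quartile factors, no filter or at least 10 counts in every library, a replicate block, each library left out, limma (version 3.58.1) on log2(FPKM + 1) or log2(FPKM + 0.1), counts thinned to the smallest library, other thresholds and other gene lengths.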

Additional observations from a re-analysis of the deposited data

How the results depend on the processing

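Of the 9 genes, the number with an adjusted p under 0.05 stayed at 6 or 7 over 15 alternatives. The log2 fold change ranged from 2.04 to 2.41 for Akr1b3, from −0.83 to −0.62 for Sord and from −1.38 to −0.87 for Cryl1. All 3 always had an adjusted p under 0.05. The −0.87 of Cryl1, from limma on log2(FPKM + 1), fell short of the fold criterion. The lower call of Akr1a1 was lost in 2 of 15, as given above. The count over all genes, 564, was 120 with limma on log2(FPKM + 1), which shrinks the folds of low genes, and 4661 with the adjusted p alone. The difference in the Akr1b3 share, 17.6 percentage points, was 32.3 without division by length and 32.2 with the coding transcript as length, the latter added after seeing the data. With single libraries left out, Khk ranged from −0.22 to 0.079, Kcnab1 from −0.084 to 0.018 (both above 0 without Dgal replicate 2) and Cald1 from −0.14 to 0.19 (above 0 without Con replicate 1, where it passed the test). Cald1 was also above 0 under upper quartile factors (0.0046), the replicate block (0.0022), limma on log2(FPKM + 1) (0.035) and on log2(FPKM + 0.1) (0.036), without passing, and the cause was not tested. Gm13856 passed with limma on FPKM (0.28 and 0.51). With the replicate number as a block, 530 genes were called and Akr1b3 had a log2 fold change of 2.32 (edgeR adjusted p = 5.7e-05). Equal numbers did not pair the libraries (correlations of deviations −0.011, −0.0027 and 0.028), and the block changed no call of the 43 single genes recomputed under it, while the number of list genes past the threshold went from 45 to 43. Having 3 libraries a group limits the precision of low genes such as Akr1b7.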
